A study of Mus musculus with 18 samples.

Results

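The genes described are those of β-adrenergic receptor and cAMP signalling, listed by name as Adrb1, Adrb3, Adcy3, Adcy5, Adcy6, Prkar2b, Prkaca, Pde3b and Pde7b, and read in adipose tissue of mice that overexpress the human bile acid receptor FXR. Of the 9 genes, 6 had a probe set that carries their symbol alone and were measured, among 19937 genes measured in all. They were Adcy3 (probe set 10394258), Adcy5 (probe set 10435388), Adcy6 (probe set 10432190), Prkar2b (probe set 10399908), Pde3b (probe set 10556528) and Pde7b (probe set 10368175), with 1 probe set each. Adrb1, Adrb3 and Prkaca are not analysed here: no probe set is listed under the symbol of either receptor, and that of Prkaca also carries another symbol. The stimulatory G protein gene Gnas is not analysed here for lack of a listed probe set of its own.

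Sympathetic nerves release noradrenaline onto fat cells, where β-adrenergic receptors couple through the stimulatory G protein to adenylyl cyclases, the enzymes that make cAMP. cAMP releases the catalytic subunits of protein kinase A (PKA) from its regulatory subunits, and the kinase then drives lipolysis and, in brown fat, heat production through Ucp1 and transcription of thermogenic genes. Phosphodiesterases end the signal by hydrolysing cAMP.

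Total RNA of 18 adipose tissue samples was hybridised to 18 Affymetrix mouse arrays, 1 sample per array. All mice were male, C57BL/6J in background, 10 weeks old and fed chow. The 4 groups were adipose-specific human FXR overexpressors sampled for brown adipose tissue (FXR BAT, n = 5), the same tissue (BAT) of wild-type mice (control BAT, n = 5), white adipose tissue (WAT) of the overexpressors (FXR WAT, n = 4) and WAT of wild-type mice (control WAT, n = 4). The labels name neither the promoter that drives the transgene, nor the white depot, nor which BAT and WAT samples came from the same mouse, and for control BAT 2 and 4 they add a feeding period of 6 weeks. The series' design text calls the samples biological replicates, and the p-values below measure the spread between these samples. Fits that join BAT and WAT treat their samples as independent, which the labels do not settle.

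The values are probe set intensities as normalized by the submitters, on a linear scale. The median probe set had an intensity of 93.1 to 99.9 on the BAT arrays, against 60.5 to 61.7 on the WAT arrays. The 1% quantile of each array, called the floor here, was 49.7 to 52.3 for BAT, against 44.9 to 46.8 for WAT. Levels within 1.5-fold of the floor, which held 28.7% to 34.9% of probe sets in BAT and 58.2% to 62.8% in WAT, compress any difference. The tissue labels were borne out by Ucp1, the uncoupling protein of brown fat, which averaged 7017 ± 800.5 in FXR BAT, 9777 ± 841 in control BAT, 57.8 ± 4.23 in FXR WAT and 54.6 ± 2.12 in control WAT (SD). The BAT arrays differed in their content of skeletal muscle transcripts: the mean log2 level of 12 muscle markers was 10.88, 10.28, 6.99, 10.81 and 8.65 on FXR BAT 1 to 5, 7.98, 7.86, 9.01, 7.07 and 6.83 on control BAT 1 to 5, and 6.02 to 6.12 on the 8 WAT arrays. FXR BAT 1, 2 and 4 stand apart on this measure, and calls in BAT are given with and without them. In bulk tissue, fewer cells of a type and less RNA per cell cannot be told apart.

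The sequences just upstream of a transcription start are shown for the 3 members whose genotype change differed between the tissues (Adcy3, Prkar2b and Pde7b) and for Adcy5, which moved the other way in BAT. Each run is the 250 bases before a RefSeq transcription start, 5′ to 3′ on the gene's strand in build GRCm38.p6, with capitals marking GC boxes (GGGCGG, or CCGCCC on the opposite strand). The windows are chr12:4133147-4133396 on the plus strand for Adcy3, chr12:32061278-32061527 on the minus strand for Prkar2b, chr10:20548329-20548578 on the minus strand for Pde7b and chr16:35154614-35154863 on the plus strand for Adcy5. The Pde7b window precedes an internal start: RefSeq's span of the gene reaches far upstream of it, and the other windows also lie within their genes' spans, close to the upstream end.
Adcy3: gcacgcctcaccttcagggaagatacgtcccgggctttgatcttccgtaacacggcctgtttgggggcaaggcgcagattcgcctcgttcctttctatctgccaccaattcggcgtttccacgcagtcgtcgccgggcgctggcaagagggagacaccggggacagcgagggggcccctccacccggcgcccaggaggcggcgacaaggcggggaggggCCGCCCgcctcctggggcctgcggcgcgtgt
Prkar2b: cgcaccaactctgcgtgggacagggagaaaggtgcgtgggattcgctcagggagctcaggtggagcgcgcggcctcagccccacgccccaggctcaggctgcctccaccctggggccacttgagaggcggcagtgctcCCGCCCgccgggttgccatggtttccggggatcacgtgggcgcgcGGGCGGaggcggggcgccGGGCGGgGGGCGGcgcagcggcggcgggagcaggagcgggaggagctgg
Pde7b: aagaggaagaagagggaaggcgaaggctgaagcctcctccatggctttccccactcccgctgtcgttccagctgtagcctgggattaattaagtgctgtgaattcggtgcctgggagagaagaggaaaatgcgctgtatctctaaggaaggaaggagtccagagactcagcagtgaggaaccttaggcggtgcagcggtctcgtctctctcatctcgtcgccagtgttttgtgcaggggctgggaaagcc
Adcy5: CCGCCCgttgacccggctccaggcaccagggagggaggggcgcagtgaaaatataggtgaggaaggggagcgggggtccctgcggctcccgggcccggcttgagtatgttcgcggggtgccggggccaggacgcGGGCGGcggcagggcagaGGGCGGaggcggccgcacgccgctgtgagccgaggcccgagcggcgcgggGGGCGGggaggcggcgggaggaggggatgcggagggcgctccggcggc
The Adcy3 window held 1 GC box, the Prkar2b window 4, the Adcy5 window 4 and the Pde7b window none. Their GC content was 68.8% for Adcy3, 75.6% for Prkar2b, 55.2% for Pde7b and 78.0% for Adcy5, against a median of 52.4% over 32851 RefSeq windows of the same length. The GC box stood in 32.7% of all windows. The cAMP response element TGACGTCA stood in 1.55% of all windows and its core TGACG, which also lies inside the full element, in 17.8%, both searched on either strand. Neither was found in the 6 windows listed for these 4 genes. No match says only that these letters are not in these windows.

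In BAT, Adcy3 showed the largest change of the 6 genes, and intensities were lower in FXR mice for 5 of the 6. By limma's moderated test with Benjamini-Hochberg adjustment over all 19937 genes, 4 fell (Adcy3, Adcy6, Prkar2b and Pde7b), Adcy5 rose, and Pde3b did not pass the threshold of 0.05. That compares with 15.8% of all genes called in BAT (7.01% higher and 8.75% lower). The median log2 change of the 6 members was -0.41, against 0.01 over all genes. The members were chosen with earlier results of these data known, so this comparison with all genes is not independent of the data. Of the 3142 genes called, 44.5% were higher in FXR BAT, against 15.99% of 4852 genes once each array was centred on its median.

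Adcy3 encodes a membrane adenylyl cyclase found in adipose tissue, olfactory neurons and primary cilia. Its intensity was 379.7, 425, 509.97, 399 and 481 on FXR BAT 1 to 5, against 810.00, 1469, 940.5, 914 and 726 on control BAT 1 to 5. The groups did not overlap, as was so for 12.2% of all genes in BAT (5.89% with FXR higher and 6.29% with FXR lower), and the highest value of all was that of control BAT 2. The mean was 439 ± 55.0 in FXR BAT and 972 ± 291 in control BAT (SD, n = 5 each), a log2 change of -1.11 ± 0.16 (SE) or 2.16-fold lower, with an adjusted p of 0.00122 by limma. Only 0.04% of all genes had a lower log2 change, which placed Adcy3 at rank 9 from the lowest.

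Adcy6, a cyclase that calcium inhibits, read 311, 371, 449.8, 348 and 384 on FXR BAT 1 to 5, against 505, 549, 497, 527 and 449 on control BAT 1 to 5. FXR BAT 3 just overlapped control BAT 5, and the other arrays were apart. Adcy6 fell by 0.45 ± 0.09 on the log2 scale, 1.36-fold, with an adjusted p of 0.00612 by limma.

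Adcy5, the closest relative of Adcy6 among the cyclases, moved the opposite way. It read 132, 148, 124, 132 and 149.97 on FXR BAT 1 to 5, against 125, 124, 110.1, 120.1 and 105 on control BAT 1 to 5. The groups overlapped at FXR BAT 3. Adcy5 rose by 0.23 ± 0.07 (log2), 1.17-fold, with an adjusted p of 0.0353 by limma, at levels of only 2.69 times the floor in FXR BAT and 2.30 times in control BAT. The call was lost when any of FXR BAT 1, 2, 4 or 5 or control BAT 3, 4 or 5 was left out (adjusted p up to 0.0813).

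Prkar2b encodes the RIIβ regulatory subunit of PKA, the main regulatory subunit of fat cells. It was the brightest member, with 3487, 4082, 4259.6, 4123 and 3708 on FXR BAT 1 to 5, against 4876, 5594, 4707, 5632 and 4533 on control BAT 1 to 5. The groups did not overlap. It averaged 3932 ± 322 in FXR BAT and 5068 ± 512 in control BAT (SD, n = 5 each) and exceeded 99.6% of genes in FXR BAT and 99.7% in control BAT. The log2 change was -0.36 ± 0.08, 1.29-fold lower, with an adjusted p of 0.00775 by limma. After quantile normalization it was -0.10, with an adjusted p of 0.398, and Prkar2b was no longer called.

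Pde7b encodes a cAMP-specific phosphodiesterase. Its intensity was 287, 347, 299, 342 and 297 on FXR BAT 1 to 5, against 384, 622, 462, 514 and 371 on control BAT 1 to 5, again without overlap. It fell by 0.56 ± 0.13 on the log2 scale, 1.47-fold, with an adjusted p of 0.0136 by limma. Pde3b, the phosphodiesterase through which insulin restrains lipolysis, read 1067, 1305, 1689, 1296 and 1270.5 on FXR BAT 1 to 5, against 1619, 1942, 1621, 1781 and 1447 on control BAT 1 to 5. FXR BAT 3 lay above 3 of the controls. Its log2 change was -0.35 ± 0.11 (95% interval -0.60 to -0.11), with an adjusted p of 0.0543 by limma. Pde3b passed in 3 of 12 other settings (adjusted p from 0.0179 to 0.459 over the 12, by limma). It also passed in 2 of the 10 fits that left out a single array (0.00666 to 0.131 over the 10).

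**Figure D1:**
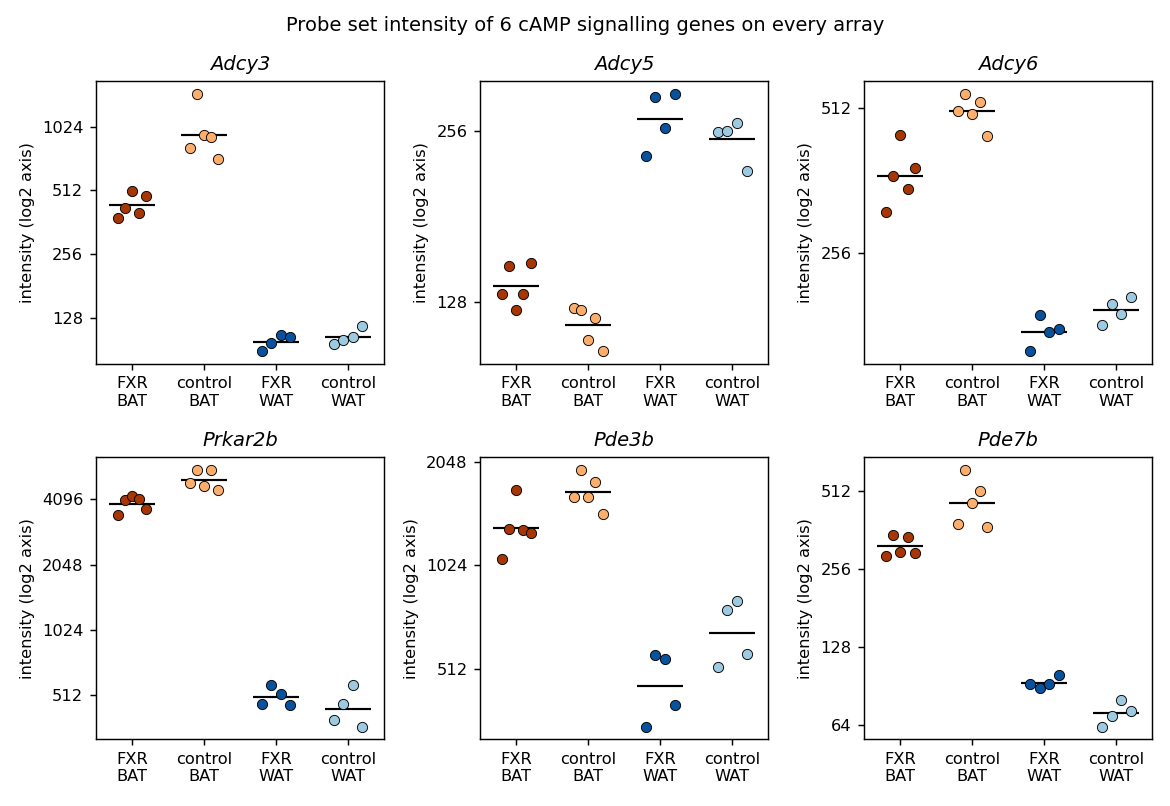
Intensity of each measured gene on every array (vertical log2 axis, intensity on the deposited scale), with the arrays of FXR BAT, control BAT, FXR WAT and control WAT side by side; points are arrays and lines are group means of log2 values. Adcy3, Prkar2b and Pde7b show FXR BAT arrays wholly below control BAT arrays, and Adcy5 is the only one of the 6 genes with higher intensity in WAT than in BAT on this scale.

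Adcy3 and Adcy6 moved opposite to the muscle content of the FXR BAT arrays but not of the control BAT arrays. The part of muscle content in the members' changes was not tested beyond the values given here. Adcy3 and Adcy6 were ordered over the 5 FXR BAT arrays exactly opposite to the muscle markers, with FXR BAT 3 highest and FXR BAT 1 lowest. Among the controls, control BAT 3 had the highest muscle marker level (9.01), yet its Adcy3 (940.5) was above all control BAT arrays but control BAT 2. Control BAT 5 had the lowest muscle marker level (6.83) and also the lowest control values of Adcy3 (726) and Adcy6 (449). FXR BAT 1 held the lowest FXR BAT value for 5 of the 6 members, all but Adcy5, and FXR BAT 3 the highest for 4 of them (Adcy3, Adcy6, Prkar2b and Pde3b). Without FXR BAT 1, 2 and 4 (2 FXR BAT arrays against 5 control BAT arrays), Adcy3 still fell, by 0.93 on the log2 scale with an adjusted p of 0.0311 by limma. The other members then did not pass: the log2 change was -0.28 for Adcy6 (adjusted p = 0.0781 by limma), -0.35 for Prkar2b (0.0605), -0.63 for Pde7b (0.0561), 0.22 for Adcy5 (0.180) and -0.19 for Pde3b (0.459). With the muscle marker level as a covariate over all 10 arrays, limma called Adcy3 (-1.01, adjusted p = 0.00820), Adcy6 (-0.31, 0.0416) and Pde7b (-0.62, 0.0272), while Prkar2b had -0.31 (0.0504), Adcy5 0.20 (0.155) and Pde3b -0.20 (0.361).

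**Figure D2:**
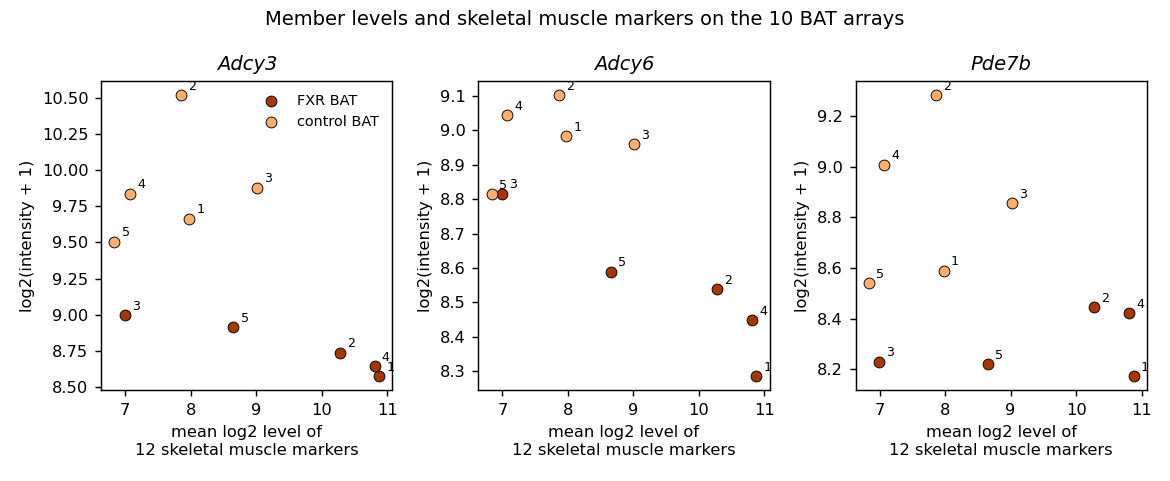
Log2(intensity + 1) of Adcy3, Adcy6 and Pde7b (vertical axes) against the mean log2 level of 12 skeletal muscle markers (horizontal axes) on the 10 BAT arrays; numbers beside points are replicate numbers. Adcy3 and Adcy6 descend with muscle level across the 5 FXR BAT arrays but not across the 5 control BAT arrays. At the low muscle level of FXR BAT 3, Adcy3 and Pde7b still lie below all 5 control BAT arrays.

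The control arrays differed among themselves as well. Control BAT 2 and 4, whose labels add the feeding period, held the 2 highest control values for 4 of the 6 members (Adcy6, Prkar2b, Pde3b and Pde7b), and control BAT 5 held the lowest control value for all 6. Without control BAT 2 and 4, limma called Adcy3 (log2 change -0.91, adjusted p = 0.00232) and Pde7b (-0.36, 0.0457). Adcy6 then had -0.38 (0.0645), Prkar2b -0.26 (0.0541), Adcy5 0.27 (0.0753) and Pde3b -0.25 (0.310). The part of the feeding period in these values was not tested further.

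In WAT, Pde7b was the only member that passed, and it moved opposite to its change in BAT. The background in WAT was 1.33% of genes called (0.873% higher and 0.456% lower). Pde7b read 92.1, 88.5, 92.3 and 99.4 on FXR WAT 1 to 4, against 62.9, 69.4, 79.8 and 72.4 on control WAT 1 to 4. The groups did not overlap, as for 7.78% of all genes in WAT (4.31% with FXR higher and 3.47% with FXR lower), but the levels were only 2.03 times the floor in FXR WAT and 1.54 times in control WAT. Pde7b rose by 0.39 ± 0.07 (log2), 1.31-fold, with an adjusted p of 0.0370 by limma. This call rested on the full set of arrays: it was lost on leaving out any of the 8 except control WAT 3 (adjusted p up to 0.120), and in the fit over all 18 arrays (adjusted p = 0.151).

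The other members did not pass in WAT. Pde3b had the largest log2 difference among them, with 348, 564, 547 and 402 on FXR WAT 1 to 4, against 519, 757, 807 and 564 on control WAT 1 to 4. Both groups spread widely and overlapped, and the log2 change was -0.51 ± 0.19 (95% interval -0.94 to -0.08, adjusted p = 0.297 by limma). Adcy3 read 89.0, 96.8, 105 and 103 on FXR WAT 1 to 4 and 95.5, 100.4, 104 and 116 on control WAT 1 to 4. It stood at 2.14 times the floor in FXR WAT and 2.26 times in control WAT, and differed by -0.08 ± 0.07 (adjusted p = 0.750 by limma). Adcy6 read 159.97, 189.6, 175 and 178 on FXR WAT 1 to 4, against 181, 200.3, 191 and 207 on control WAT 1 to 4, a log2 difference of -0.15 ± 0.06 (adjusted p = 0.324).

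Adcy5 was at its brightest in WAT, with 231, 294, 259 and 298 on FXR WAT 1 to 4 and 255, 256, 264 and 218 on control WAT 1 to 4. The groups overlapped, with a log2 difference of 0.12 ± 0.09 (adjusted p = 0.681 by limma). Prkar2b read 465, 566, 514 and 460.3 on FXR WAT 1 to 4, against 391, 462, 567.8 and 365 on control WAT 1 to 4, and its log2 difference was 0.18 ± 0.13 (adjusted p = 0.664).

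The genotype change itself differed between the tissues for 3 members, all lower in BAT, where 6.46% of all genes were called (2.02% higher and 4.44% lower). The BAT change minus the WAT change was -1.03 ± 0.21 for Adcy3 (log2, adjusted p = 0.00647 by limma over 18 arrays), -0.94 ± 0.17 for Pde7b (0.00274) and -0.55 ± 0.15 for Prkar2b (0.0430). The Prkar2b call was lost on leaving out any of 12 of the 18 arrays, with adjusted p up to 0.0922. It was also lost after quantile normalization (-0.24, 0.447), without control BAT 2 and 4 (-0.45, 0.163) and without FXR BAT 1, 2 and 4 (-0.53, 0.115). Adcy6 had a difference of -0.29 ± 0.12 (0.161), Adcy5 0.11 ± 0.11 (0.679) and Pde3b 0.16 ± 0.23 (0.780). For Pde3b the log2 change was -0.35 in BAT and -0.51 in WAT, and no difference between the tissues was detectable. Of the 1288 genes whose change differed, 31.3% were higher in BAT, against 43.4% of 819 after quantile normalization and 13.1% of 1872 after median centring. Adcy3 stood at 2.26 times the floor in control WAT and Pde7b at 1.54 times. Both lie above the 1.5-fold range named at the start, and compression at these levels was not measured.

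**Figure D3:**
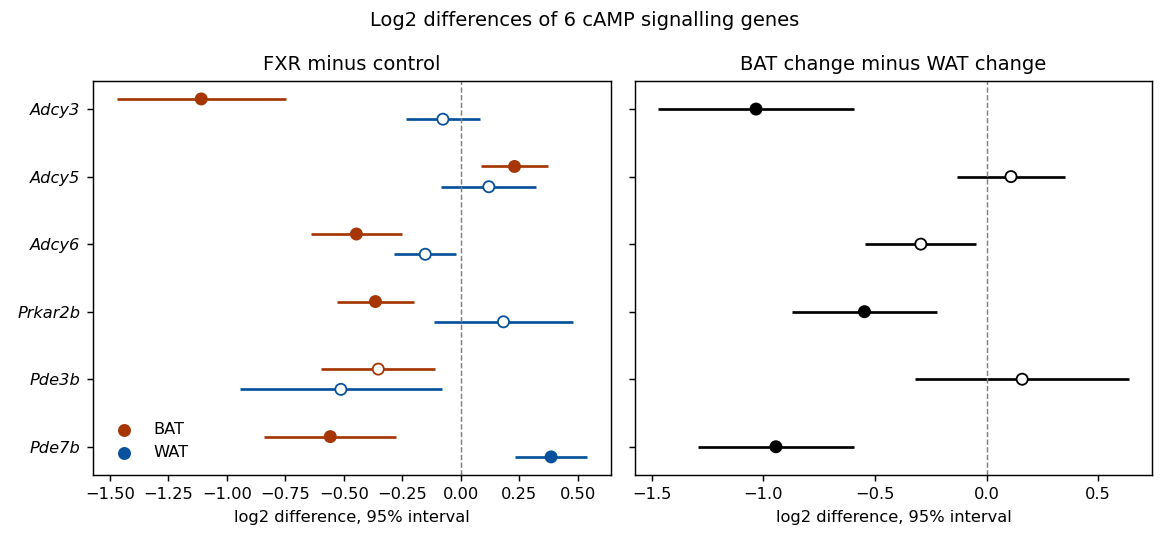
Log2 difference of FXR minus control in BAT and in WAT (left), and the BAT change minus the WAT change (right), for the 6 measured genes on horizontal axes; bars are 95% intervals and filled points passed an adjusted p of 0.05. The BAT change of Adcy3, -1.11, lies farthest from 0, and Pde7b has a fall in BAT beside a rise in WAT.

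In control mice, 5 members were higher in BAT than in WAT on the deposited scale and Adcy5 was lower, where 96.8% of all genes were called (94.8% higher and 1.98% lower). The 2 groups did not overlap for any of the 6 members, as for 94.0% of all genes (92.5% with BAT higher and 1.44% with BAT lower). That scale placed the median gene 0.59 higher (log2) in BAT, and 98.0% of the called genes were higher in BAT, against 50.4% of 11580 after quantile normalization and 43.6% of 16540 after centring each array on its median. Set against that median, Prkar2b stood 2.93 above it, Adcy3 2.58, Pde7b 2.10, Adcy6 0.78 and Pde3b 0.77, and Adcy5 -1.67 on the log2 scale. After quantile normalization Adcy3 (1.89), Prkar2b (1.80) and Pde7b (1.65) remained higher in control BAT and Adcy5 lower (-2.16), whereas Adcy6 (-0.02, adjusted p = 0.740 by limma) and Pde3b (-0.30, 0.0370) changed sign. The place of each gene among all genes showed the same contrast. Adcy3 exceeded 95.9% of genes in control BAT and 73.3% in control WAT, while Adcy5 exceeded 53.2% in control BAT and 93.9% in control WAT.

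On the deposited scale, the mean of FXR BAT stood between control BAT and both WAT groups for Adcy3, Adcy6, Prkar2b, Pde3b and Pde7b. For Adcy5 the order of group means, low to high, was control BAT (117 ± 8.84), FXR BAT (137 ± 11.2), control WAT (248 ± 20.6) and FXR WAT (271 ± 31.4), of which the 2 WAT groups did not differ beyond their spread (SD).

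The rest of the pathway was read from 8 lists that follow the signal from receptor to transcription factor and leave out the members: 62 of their 70 genes were measured. In BAT 9 rose, 8 fell and 45 did not pass. That is 27.4% called, against 15.8% of all genes (7.01% higher and 8.75% lower). The median log2 change was -0.02, against 0.01 over all genes. In WAT 1 rose, none fell and 61 did not pass, which is 1.61% called, against 1.33% of all genes. These lists, like the members, were chosen with earlier results of these data known.

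At the receptor, the α-adrenergic receptors Adra1b (0.04 in BAT and 0.02 in WAT, log2) and Adra2c (0.02 in BAT and -0.08 in WAT) did not pass in either tissue. Of 7 measured receptor kinases, arrestins and regulators, 1 fell, 2 rose and 4 did not pass in BAT, with a median of -0.02. Grk3, a kinase that phosphorylates activated receptors, read 215, 232, 287, 244 and 255 on FXR BAT 1 to 5, against 405, 379, 328, 347 and 355 on control BAT 1 to 5. These did not overlap, and Grk3 fell by 0.56 ± 0.08 on the log2 scale (adjusted p = 8.26e-04 by limma), also without FXR BAT 1, 2 and 4 (-0.42, 0.0160). The change in BAT minus that in WAT was -0.63 ± 0.10 (0.00121), with Grk3 at only 1.44 times the floor in FXR WAT and 1.37 times in control WAT. Arrb2, a β-arrestin, rose by 0.18 ± 0.04 (log2), and without those arrays by 0.22 (adjusted p = 0.0367 by limma). Arrdc3, an arrestin-like protein that binds β-adrenergic receptors, rose by 0.25 ± 0.06, and did not pass without them (0.27, 0.0652). Of 6 measured G protein α subunits, only Gnao1 passed in BAT, at -0.25 ± 0.07 (adjusted p = 0.0364 by limma), and without FXR BAT 1, 2 and 4 it did not (-0.13, 0.383).

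Among the 7 other adenylyl cyclases, 2 rose, 1 fell and 4 did not pass in BAT (median 0.02). Adcy7, a cyclase abundant in blood cells, read 154, 144, 152, 147 and 154 on FXR BAT 1 to 5, against 109.7, 119, 124, 114 and 119.7 on control BAT 1 to 5, without overlap. It rose by 0.35 ± 0.04 (log2, adjusted p = 1.71e-04 by limma) and did so without FXR BAT 1, 2 and 4 (0.38, 0.00395). All 9 macrophage markers also rose in BAT, and the part of macrophage RNA in the Adcy7 value was not tested. Adcy4 fell by 0.22 ± 0.06 (0.0196), and did not pass without FXR BAT 1, 2 and 4 (-0.22, 0.141). Adcy2 rose by 0.31 ± 0.09 (0.0374), with its 5 FXR BAT values in the same order as the muscle markers, and had 0.10 (0.405) without FXR BAT 1, 2 and 4. Adcy2 was near the floor, at 1.53 times in control BAT.

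The list of 7 other PKA subunits and inhibitors held 1 gene that rose in BAT, 1 that fell and 5 that did not pass (median 0.03). Pkia, the PKA inhibitor abundant in muscle, read 619, 254, 116, 503 and 159.99 on FXR BAT 1 to 5, against 95.2, 94.1, 137, 84.9 and 80.5 on control BAT 1 to 5. Its FXR BAT values followed the order of the muscle markers. Pkia rose by 1.48 ± 0.41 (log2, adjusted p = 0.0313 by limma), and without FXR BAT 1, 2 and 4 its change was 0.49 (0.166). Prkar1a, the RIα regulatory subunit, fell by 0.23 ± 0.06 (0.0325) and by 0.31 (0.0291) without those arrays.

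Of 10 A-kinase anchoring proteins, which tether PKA in the cell, 2 rose and 8 did not pass in BAT (median -0.11). Akap12 rose by 0.22 ± 0.03 (log2, adjusted p = 9.44e-04 by limma), and by 0.22 (0.0158) without FXR BAT 1, 2 and 4. Akap6, an anchor of striated muscle, rose by 0.54 ± 0.14 (0.0243), followed the muscle order over the FXR BAT arrays and had 0.22 (0.0799) without FXR BAT 1, 2 and 4. Akap6 stood at only 1.36 times the floor in control BAT, where differences are compressed.

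Of 14 other cAMP phosphodiesterases, 2 rose, 2 fell and 10 did not pass in BAT (median -0.01). Pde7a, the relative of Pde7b, rose in both tissues, whereas Pde7b fell in BAT. It read 191, 157, 152, 175 and 166 on FXR BAT 1 to 5, against 148, 134, 133, 136 and 126 on control BAT 1 to 5. In WAT it read 117, 111, 119.9 and 114 on FXR WAT 1 to 4, against 87.2, 89.6, 89.6 and 99.9 on control WAT 1 to 4. Neither pair of groups overlapped. Pde7a rose by 0.31 ± 0.06 in BAT (log2, adjusted p = 0.00693 by limma) and by 0.33 ± 0.05 in WAT (0.0208), and the BAT change minus the WAT change was -0.02 ± 0.08 (0.937). In BAT it had 0.23 (0.0575) without FXR BAT 1, 2 and 4. Pde4a, a cAMP-specific phosphodiesterase, fell by 0.34 ± 0.05 (0.00168), as did Pde4d of the same family, by 0.33 ± 0.07 (0.0111). Pde1b, which calcium and calmodulin activate, rose by 0.18 ± 0.03 (0.00507). Without FXR BAT 1, 2 and 4, Pde4a (-0.26, 0.0238) and Pde4d (-0.31, 0.0463) still passed and Pde1b did not (0.17, 0.0743).

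Further down, 2 of 9 measured cAMP effectors and CREB family genes fell in BAT and 7 did not pass (median -0.12). They were Rapgef3, the cAMP-activated exchange factor Epac1 (-0.24 ± 0.06 log2, adjusted p = 0.0180 by limma), and the transcription factor Atf2 (-0.39 ± 0.10, 0.0251). Without FXR BAT 1, 2 and 4 neither passed (adjusted p = 0.0717 for Rapgef3 and 0.328 for Atf2).

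Of 14 genes that β-adrenergic stimulation is known to induce in brown fat, 7 fell in FXR BAT, none rose and 7 did not pass, with a median log2 change of -0.44. Without FXR BAT 1, 2 and 4 the count was 5, in a setting that also called fewer of all genes. With every BAT array in the fit, 8.75% of all genes fell. This list too was chosen with earlier results of these data known. Dio2, which makes active thyroid hormone, read 129, 126, 107, 180.2 and 124 on FXR BAT 1 to 5, against 559, 597, 833, 818 and 306 on control BAT 1 to 5. The groups were far apart, with a log2 change of -2.15 ± 0.25 (adjusted p = 2.41e-04 by limma). Elovl3, a fatty acid elongase, read 229.8, 355, 85.6, 221 and 157 on FXR BAT 1 to 5, against 1058, 1757, 1285, 969.97 and 754 on control BAT 1 to 5, a change of -2.56 ± 0.34 (5.98e-04). Ppargc1a, the coactivator of mitochondrial genes, fell by 0.78 ± 0.12 (0.00195) and Ucp1 by 0.48 ± 0.08 (0.00247). Sik1, a cAMP-induced kinase named here after its values were seen, fell by 0.96 ± 0.19 (0.00663). All 5 also fell without FXR BAT 1, 2 and 4, with log2 changes of -2.33 for Dio2, -3.26 for Elovl3, -0.74 for Ppargc1a, -0.64 for Ucp1 and -1.06 for Sik1 (adjusted p from 6.79e-04 to 0.0334 by limma). Dio2 and Ucp1 are also in the brown adipocyte marker list, and in WAT limma called 0 of the 14, with 2 at an unadjusted p under 0.05. In WAT, Dio2, Elovl3, Ppargc1a and Ucp1 were within 1.5-fold of the floor, where differences are compressed.

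Of 8 lipolysis proteins that PKA controls, 4 fell and 4 did not pass in BAT (median -0.30). Lipe, the hormone-sensitive lipase, fell by 0.30 ± 0.04 (log2, adjusted p = 7.78e-04 by limma), Plin1, the lipid droplet coat protein that PKA phosphorylates, by 0.29 ± 0.05 (0.00188) and Mgll, the monoglyceride lipase, by 0.39 ± 0.09 (0.0137). Without FXR BAT 1, 2 and 4 the count was 2: Lipe (-0.37, 0.00262) and Plin1 (-0.26, 0.0401) passed and Mgll (-0.40, 0.0818) did not. Lipe, Plin1 and Fabp4 are also in the mature adipocyte marker list, so the 2 lists are not separate evidence. In WAT limma called 0 of the 8, with 4 at an unadjusted p under 0.05.

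**Figure D4:**
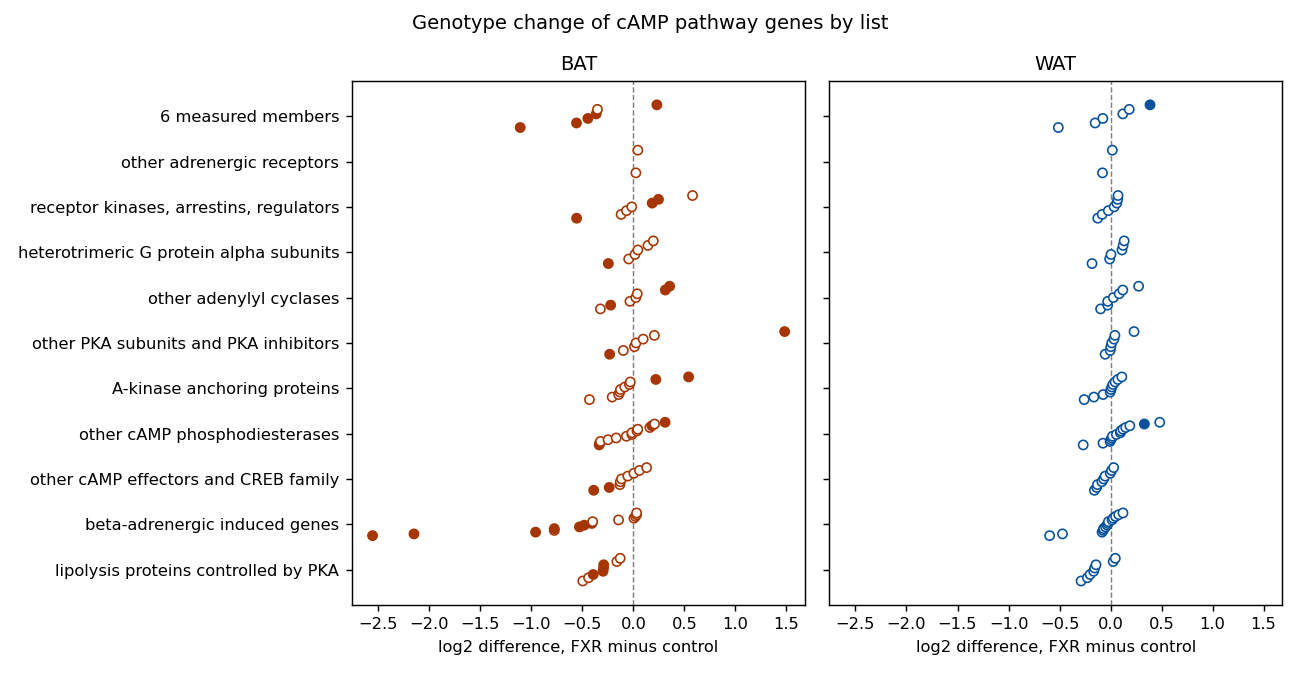
Log2 difference of FXR minus control for every measured gene of the members and of each pathway list (horizontal axes; cell type marker lists are not drawn), in BAT (left) and WAT (right); each point is a gene, filled where the adjusted p was under 0.05. In BAT most points of the β-adrenergic induced list lie left of 0, down to -2.56 for Elovl3, and among the genes drawn only Pde7b and Pde7a are filled in WAT.

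Markers of some other cells moved with genotype in BAT beside these genes, where 7.01% of all genes rose and 8.75% fell. All 9 macrophage markers rose, with a summed intensity of 2440 to 3147 over the FXR BAT arrays, against 1230.3 to 1780.2 over the control BAT arrays. All 8 fibroblast and progenitor markers rose (10629.8 to 12831 in FXR BAT, against 4172 to 6616 in control BAT). Of 7 mature adipocyte markers, 5 fell and 2 did not pass (17724 to 19880.6 in FXR BAT, against 20702 to 23734 in control BAT), and of 8 brown adipocyte markers 6 fell, 1 rose and 1 did not pass (18304 to 21844.5 in FXR BAT, against 25497 to 29993.5 in control BAT). Of 7 endothelial markers 2 fell and 5 did not pass in BAT, and of 6 white adipocyte and white depot markers 1 rose and 5 did not pass. Of 4 measured Schwann cell markers 0 passed in BAT. No marker was at 0. Which cells carry the members' transcripts cannot be read from bulk tissue, and the part of cell content in the members' values was not tested. The median log2 change was -0.41 for the 6 members, -0.43 for the brown adipocyte list and -0.29 for the mature adipocyte list. Of 12 muscle markers 2 rose and 10 did not pass (1590 to 28165 in FXR BAT, against 1430 to 8073 in control BAT), with a median log2 change of 1.74. In WAT limma called 0 of 9 macrophage markers (2 at an unadjusted p under 0.05) and 0 of 8 fibroblast markers (4 unadjusted). Of 6 white adipocyte and white depot markers, the leptin gene Lep rose in WAT (1.30 ± 0.22 log2, adjusted p = 0.0323 by limma). The other 5 did not pass and had negative changes, and the median of the 6 was -0.15. Pparg, the adipocyte transcription factor, fell in WAT (-0.29 ± 0.05, 0.0435), and the 6 other measured mature adipocyte markers did not pass.

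No sympathetic neuron marker passed the test. Of 10, among them Th and Dbh, the enzymes of noradrenaline synthesis, limma called 0 in BAT (0 at an unadjusted p under 0.05) and 0 in WAT (2 unadjusted). Their summed intensity was 851 to 908 in FXR BAT, 819.5 to 902.5 in control BAT, 600.3 to 628 in FXR WAT and 593 to 607 in control WAT. These markers were dim, at 1.29 (Dbh) to 2.16 (Ngfr) times the floor in control BAT and 1.16 (Slc18a2) to 1.77 (Npy) times in control WAT. Differences are compressed for those within 1.5-fold of the floor. The cell bodies of sympathetic nerves lie outside the fat, and innervation was not tested.

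The genes whose pattern over all 18 arrays was most like that of each member called in BAT were named by the smallest root mean square difference of log2 levels after each gene's own mean was removed. For Adcy3 they were Ppargc1a (0.217) and Adtrp (0.227), for Adcy6 Ptprd (0.0866) and D17H6S53E (0.0985), and for Adcy5 Psat1 (0.153) and Nid2 (0.173). For Prkar2b they were Ghitm (0.132) and Hspd1 (0.134), and for Pde7b Slc25a17 (0.166) and Prelid3b (0.170). The arrays share tissue and genotype, so likeness here includes the difference between BAT and WAT.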

How the data were processed

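Expression was measured on 18 Affymetrix arrays from 500 ng of total RNA each, labelled without rRNA reduction per the labels' protocols. The authors deposited 1 table of normalized intensity values on a linear scale for 34760 probe sets; the normalization method and build are not given in the sources used here. Probe sets were named from the platform's annotation: 21640 carry a single gene symbol, 1321 several and 11799 none. For the 954 genes with several probe sets the brightest was kept, leaving 19937 genes.

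Log2(intensity + 1) was fitted with limma 3.58.1 in R 4.3.3 (lmFit and eBayes, two-sided), separately in the 10 BAT arrays and the 8 WAT arrays, over all 18 arrays for the difference between the tissues' changes, and over the 9 control arrays for BAT minus WAT. Adjustment was by Benjamini-Hochberg across the 19937 genes, and an adjusted p under 0.05 counted as a call. The pseudocount of 1 and the floor compress the folds of dim genes. No counts lie behind the values, so the number of arrays limits the precision. Members and lists were chosen with earlier results of these data known. Named genes were the 9 members, up to 3 called genes per pathway list and comparison (smallest adjusted p first), the 2 most alike genes per member, and the brightest markers. The fits were tested on simulated data. Alternatives were quantile normalization, median centring, array weights, a pseudocount of 16, a filter on dim genes, a replicate block, the fit over all arrays and leaving out arrays; leaving out FXR BAT 1, 2 and 4 and the muscle covariate were chosen after seeing the data. Promoter sequences are RefSeq's, GRCm38.p6.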

Additional observations from a re-analysis of the deposited data

Results flagged for a closer look

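The genotype change differed between BAT and WAT, by limma's test of the difference itself, for 3 members and 9 pathway genes, all with the lower change in BAT. Some of the 31 genes examined were named because they were called in this comparison, so their number is partly set by that choice and is not set against all genes. Over the 8 pathway lists without that choice, 5 of 62 measured genes were called, all lower in BAT. That is 8.06%, against 6.46% of all genes. The BAT change minus the WAT change (log2) was -1.03 for Adcy3, -0.94 for Pde7b and -0.55 for Prkar2b. It was -2.60 for Elovl3, -2.12 for Dio2, -0.71 for Ppargc1a and -0.56 for Ucp1 among genes that β-adrenergic stimulation induces. It was -0.63 for Grk3, -0.38 for Gnao1, -0.35 for Pde4a, -0.48 for Pde4d and -0.51 for Pde8a among the other pathway genes. Pde8a did not pass in BAT alone (-0.32 ± 0.11, adjusted p = 0.0706 by limma).

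A single array lay far from the rest of its group in 2 of 124 sets of a gene and a group, where chance gives about 1 in 20. Adcy4 read 8.24 (log2) on control BAT 2, against 7.94 to 8.03 on the other control BAT arrays. Ppargc1a read 8.09 on FXR BAT 1, the array with the highest muscle marker level, against 8.29 to 8.37 on the other FXR BAT arrays.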

How the results depend on the processing

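Of 510 member values under alternatives, 457 kept their direction and side of the threshold, 43 lost their call, 8 gained one and 2 changed sign: in control BAT minus control WAT, quantile normalization gave -0.0218 for Adcy6 and -0.302 for Pde3b. Adcy3 in BAT kept its call in all 12 other settings (log2 change -1.19 to -0.91) and on leaving out each array. In BAT, genes called (3142) became 4852 with median centring, 1416 without control BAT 2 and 4 and 1913 without FXR BAT 1, 2 and 4, and 2198 to 3685 on leaving out each array. Members called in BAT (5) became 3 with quantile normalization, 2 without control BAT 2 and 4, 1 without FXR BAT 1, 2 and 4 and 3 with the muscle covariate, and 4 to 6 on leaving out each array. In WAT, genes called (265) became 414 with array weights and 411 in the fit over all 18 arrays, and 49 to 336 on leaving out each array, fewest without control WAT 1, 2 or 4 (49, 54 and 64). Members called in WAT (1) became 0 in the fit over all 18 arrays and 0 to 1 on leaving out each array. For the difference between the tissues' changes, genes called (1288) became 819 with quantile normalization and 727 without control BAT 2 and 4. For control BAT minus control WAT, genes called (19292) became 11580 with quantile normalization and 9571 among genes above the median level only, where fewer genes are tested. Apart from fewer genes or arrays, the cause was not tested. Deviations of same-numbered arrays correlated at -0.493 to 0.276 between FXR BAT and control BAT, 0.009 to 0.157 between FXR WAT and control WAT and -0.083 to 0.256 between control BAT and control WAT. Not every pair was above 0.1 in any comparison, and an array correlated best with its own number in 1 of 5, 2 of 4 and 3 of 4 pairs. Only BAT and WAT samples of the same genotype could share a mouse, and FXR BAT against FXR WAT was not checked. With so few pairs these values cannot decide whether equal numbers share a mouse. The numbers were not taken as pairs, so the p-values of fits across tissues treat BAT and WAT samples as independent. With the replicate number as a block, limma called 2741 genes and 4 members in BAT, 237 genes and 2 members in WAT (Pde7b, and Pde3b at -0.51 with an adjusted p of 0.0139, against 0.297 without the block), 1437 genes and 3 members for the difference, and 19302 genes and 6 members between the control tissues. Low signal limits Adcy3 and Pde7b in WAT, as well as Dio2, Elovl3, Ppargc1a, Ucp1, Grk3, Pde4a and Gnao1.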
